A study of Mus musculus with 24 samples.

Results

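Broad domains of histone H3 lysine 27 acetylation (H3K27ac) were taken from the combined peak list of each of 2 embryonic mouse cartilages, Meckel's cartilage (MC) and forelimb cartilage (FL). Every combined peak of 40 kb or more on an autosome or on X was kept, overlapping peaks were merged, and each merged domain was classed by the list or lists in which it held such a peak. This gave 1404 domains out of 48342 merged H3K27ac intervals. Of these, 515 were broad in both cartilages, 215 in MC only and 674 in FL only. The widths that chose the domains are themselves H3K27ac values, so widths, classes and H3K27ac cover are given as a description without a test. The assay for transposase-accessible chromatin (ATAC-seq) played no part in the choice and is the independent measurement below.

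All tissue came from wild-type C57BL/6 mouse embryos. H3K27ac was profiled by CUT&Tag, which cuts DNA next to an antibody-bound mark, in MC and FL at E14.5 with 3 libraries each. ATAC-seq was made from MC and FL at E14.5 with 3 libraries each, and from the mandibular process, the tissue in which MC forms, at E12.5 with 2 libraries. The labels do not say whether the libraries of a group came from separate embryos or litters or from pools, so the spread between libraries may be technical. The Hi-C and 4C samples and the deletion line of the series were not analysed here.

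H3K27ac marks active promoters and enhancers. Most acetylated stretches are short, and long ones are known for lying at genes that define a cell's identity. Cartilage is made by chondrocytes under the control of Sox9 with Sox5 and Sox6, and its matrix is built of type II, IX and XI collagens and aggrecan. MC is a rod derived from neural crest that shapes the lower jaw, whereas limb cartilage is derived from lateral plate mesoderm.

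The domains covered microRNAs as well as protein-coding genes, and a few microRNA families, picked after their places were seen, are shown here because they spread over the classes or lie at cartilage genes. RefSeq's GRCm38.p6 entries for mature microRNAs are printed with the seed, bases 2 to 8, in capitals.
miR-199a-5p: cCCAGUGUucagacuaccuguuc
miR-199a-3p: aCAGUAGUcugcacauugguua
miR-199b-3p: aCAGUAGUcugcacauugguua
miR-214-3p: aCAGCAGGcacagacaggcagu
miR-455-5p: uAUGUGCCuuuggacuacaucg
miR-455-3p: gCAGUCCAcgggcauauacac
miR-23a-3p: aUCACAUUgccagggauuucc
miR-27a-3p: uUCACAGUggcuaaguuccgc
miR-27b-3p: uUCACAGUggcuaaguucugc
miR-24-3p: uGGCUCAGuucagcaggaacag
let-7c-5p: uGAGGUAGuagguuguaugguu
let-7b-5p: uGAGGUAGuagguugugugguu
The mature miR-199a-3p and miR-199b-3p share the seed CAGUAGU, and their 3 loci lay in domains of 3 different classes. Mir199a-1 lay in the Dnm2 domain (chr9:21419123-21500461, 81.3 kb), broad in both cartilages. Mir199a-2 lay with Mir214 in the Dnm3 domain (chr1:162178887-162232717, 53.8 kb), broad in FL only, of which MC peaks covered 89.7%. Mir199b lay in the Dnm1 domain (chr2:32297337-32355519, 58.2 kb), broad in MC only, of which FL peaks covered 95.7%. Both paralogous clusters of miR-23, miR-27 and miR-24 lay in domains broad in both cartilages, Mir23a, Mir27a and Mir24-2 in the Zswim4 domain (chr8:84163415-84275183, 111.8 kb) and their paralogs in the Aopep domain (chr13:63234597-63351185, 116.6 kb). The let-7b and let-7c loci, which share the seed GAGGUAG, lay together in a domain of 61.2 kb on chromosome 15 that overlapped no protein-coding gene and was broad in both.

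Of the pair of microRNAs best known from chondrocytes, miR-455 lay in a broad domain and miR-140 did not. The mature miR-455 arms lay in the Col27a1 domain (chr4:63195103-63320251, 125.1 kb), broad in both cartilages. The Mir140 hairpin (chr8:107551244-107551313) was covered by narrower peaks of 23.2 kb in MC and 23.7 kb in FL, 19.2 kb away from the second Wwp2 domain. Of 1005 RefSeq hairpins counted, 163 (16.2%) lay in a domain, 94 of them in domains broad in both, 21 in MC only and 48 in FL only. Some combined H3K27ac peak held 62.8% of the hairpins. The Mir455 hairpin was not among the 163, although its mature arms lay in a domain, so the count is not complete.

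The domains broad in both cartilages were wider than the rest, with a median of 70.9 kb against 46.4 kb for MC only and 48.2 kb for FL only. Merging adds to that width. Their single peaks were wider as well, but the classes were set by these same widths, so this does not show what merging added. The widest MC peak had a median of 54.4 kb, against 46.4 kb in MC only domains. The widest FL peak had a median of 61.5 kb, against 48.2 kb in FL only domains. Together the domains spanned 86.8 Mb. The widest lay at Zmiz1, which encodes a coactivator of several transcription factors (chr14:25436307-25682519, 246.2 kb). It was followed by the domain of Chst11, a sulfotransferase that makes chondroitin 4-sulfate for cartilage proteoglycan (chr10:82960717-83195774, 235.1 kb). The other 6 of the 8 widest measured 176.6 to 219.0 kb, and Tns3, Tns1, Cmip, Synpo and Iqsec1 were among their genes. The widest domain broad in MC only lay over Lgals3 and Dlgap5 (100.4 kb), and the next over Eif4g3 (93.7 kb) and Zfp423, a zinc-finger transcription factor gene (87.2 kb). The widest domain broad in FL only lay over Rin3 and Lgmn (135.6 kb), followed by those at Arap1 (134.1 kb) and Slc45a4 (131.8 kb).

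The MC list held 47549 peaks, of which 760 (1.60%) were broad and took up 10.7% of its bases. The FL list held 39914 peaks with 1206 broad ones (3.02%) and 16.0% of its bases. The FL list was also the one with the wider typical peak, 7.36 kb at the median against 5.51 kb, and the one whose weakest peak was stronger, with a smallest total signal of 25799 against 16925. The larger number of FL only domains therefore stood beside a list with wider peaks throughout. When the 760 widest peaks were taken from each list, a comparison added after the data were seen, the classes became 408 domains in both, 322 in MC only and 342 in FL only. The cutoff that gave 760 FL peaks was 48.0 kb.

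The 40 kb limit cut through a continuum of widths. In MC the Ksr1 peak of 40000 bp fell just inside, and peaks over Kirrel3 and St3gal4 (39971 bp) and over Slc9a5, Plekhg4 and Kctd19 (39941 bp) just outside. In FL the Lrp8 peak of 40033 bp and a peak with no gene of 40060 bp fell just inside, and the Cotl1 peak of 39985 bp and the Kank1 peak of 39977 bp just outside. A further 735 MC peaks and 1064 FL peaks measured 30 to 40 kb.

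**Figure D1:**
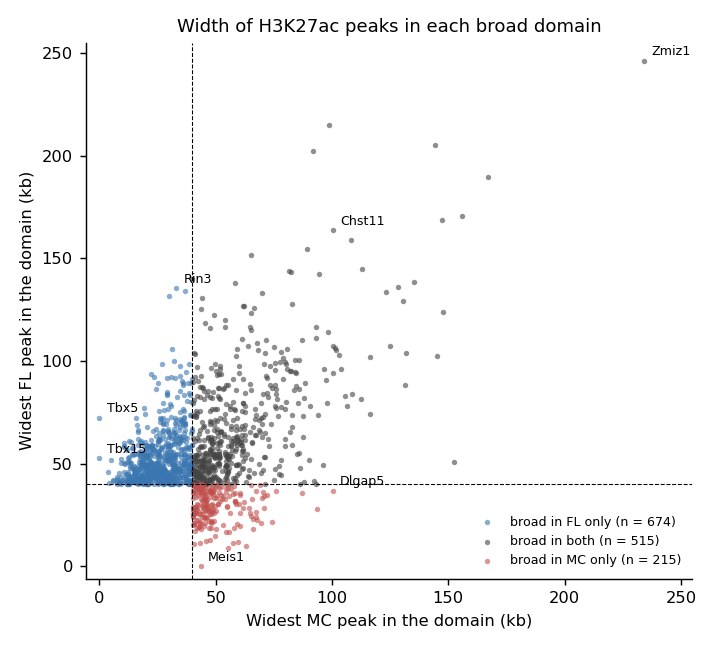
Each point is a broad domain, placed by the width in kb of its widest MC peak (x axis) and widest FL peak (y axis) and coloured by class; dashed lines mark 40 kb. Most domains broad in 1 cartilage have peaks of 10 to 40 kb in the other, and only Tbx5, Tbx15 and Meis1 sit at 0 on one axis.

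Domains broad in 1 cartilage were mostly acetylated in the other as well, but in shorter pieces. MC only domains were covered by FL peaks over a median of 89.0% of their length, by a median of 2 FL peaks of which the widest had a median of 30.2 kb. FL only domains were covered by MC peaks over a median of 85.3%, by a median of 3 MC peaks, the widest with a median of 26.4 kb. The Rin3 domain shows the pattern, a single FL peak of 135.6 kb facing 7 MC peaks, the widest of 33.1 kb, that covered 80.2% of it. Under 50% cover in the other cartilage was found for 3 of 215 MC only domains and 18 of 674 FL only domains.

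Of all 1404 domains, 3 had no peak at all in the other cartilage, and each lay at a developmental transcription factor gene. They were the Tbx5 domain (chr5:119819755-119892102, 72.3 kb, FL only), the Tbx15 domain (chr3:99233221-99285845, 52.6 kb, FL only) and the Meis1 domain (chr11:18924094-18967690, 43.6 kb, MC only). Tbx5 is required to form the forelimb bud, Tbx15 acts in limb and head skeleton, and Meis1 is a homeodomain partner of Hox proteins. The next lowest cover, described after the values were seen, was at Utrn (9.69%), Col6a6 (15.0%) and Pi4ka (24.8%) among FL only domains, and at Tab2 (49.4%) among MC only domains.

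The other measure of the same mark came from the H3K27ac peak lists of the 6 separate libraries. It was sparse in all combined H3K27ac intervals, more so in these domains than in narrower ones, and does not resolve the domains. Those lists held 68477 to 75531 peaks each, of at most 10 on the signal scale against up to 50 in the combined lists. Each list covered 51.9 to 55.8 Mb in total, where the domains spanned 86.8 Mb. They covered 0.753% to 1.13% of the domains' bases, or 1.26% to 1.76% of each list's own cover. The narrower H3K27ac intervals were covered more, over 0.944% to 1.35% of their bases, and in each of the 6 libraries the narrower intervals had the higher share. The combined lists spanned 407.7 Mb in MC and 454.4 Mb in FL. Most of the cover of each separate list thus lay outside the combined H3K27ac intervals, and the cause was not tested. Between 437 and 598 of the 1404 domains held no peak of a given library. The widths and classes therefore rest on 1 combined list per cartilage, have no check between libraries and were not borne out by the separate lists.

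The listed genes of cartilage met the domains in a larger share than protein-coding genes as a whole. The span of 2544 of 21631 protein-coding genes (11.8%) met a domain, and so did 16.5% of the 15399 genes that met any combined H3K27ac peak. Among listed genes, 9 of 22 chondrogenic regulators (40.9%) and 10 of 27 cartilage matrix genes (37.0%) met a domain. The share over all genes varied with gene length, from 8.91% for spans under 10 kb to 19.6% for 100 to 300 kb. Of 15 reference genes used by every cell, 4 met a domain as well (Actb, Gapdh, Ppia and Rplp0, 26.7%). Since the lists were chosen with these data known, the counts are descriptions.

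The cartilage matrix genes in domains cover the main structural parts of the tissue. Col2a1 (type II collagen), Col11a2 (type XI), Col9a3 (type IX), Col27a1 (a fibrillar collagen of growth cartilage), Acan (aggrecan), Comp (a matrix glycoprotein) and Chst11 each met a domain broad in both. Xylt1, which starts the glycosaminoglycan chains of proteoglycans, met 3 domains, 2 broad in both and 1 in MC only. Col9a1 (48.1 kb) and Ucma (42.0 kb) met domains broad in FL only. Other matrix genes had narrower peaks in both lists. The widest over Col9a2 were 34.0 kb in MC and 39.1 kb in FL, those over Matn1 were 7.36 and 10.0 kb, and those over Hapln1 were 18.5 and 10.1 kb.

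Among chondrogenic regulators, Sox9 itself was not in a broad domain. Its widest peaks measured 12.9 kb in MC and 15.9 kb in FL. The nearest domain, a stretch without a protein-coding gene that was broad in FL only (53.4 kb), lay 267.7 kb from the gene. Sox5 met 2 domains, of 66.8 kb (both) and 60.6 kb (MC only). Sox6 did not reach the limit, with peaks of up to 30.0 kb in MC and 25.8 kb in FL. Gli2, a transcriptional effector of hedgehog signalling, met domains of 143.7 and 55.2 kb, both broad in both cartilages, and Gli3 met 2 domains broad in FL only. Creb3l2, which encodes a regulator of collagen secretion in chondrocytes, met a domain of 105.3 kb, and Pth1r, the receptor for parathyroid hormone-related protein, one of 119.0 kb that it shares with Ccdc12 and Myl3. Wwp2, Nfatc2, Nfib and Arid5a were the remaining regulators that met domains.

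Of 45 mandibular and neural crest genes, 3 met a domain (6.67%, against 11.8% of all protein-coding genes), Alx4 and Ets1 (MC only) and Prrx2 (FL only). Of 35 limb patterning genes, 5 did (14.3%), a share near that of all genes, among them Tbx5, Tbx15 and Gli3 (FL only) and Meis1 (MC only). None of 39 Hox genes did, although a FL peak of 38.7 kb over Hoxa7, Hoxa9, Hoxa10 and Hoxa11, where no MC peak lay, came close to the limit. The Dlx and Msx genes, homeobox genes of the jaw, carried narrow MC peaks, such as 23.3 kb over Dlx5 and Dlx6 and 16.8 kb over Msx1, where the widest FL peaks were 4.32 kb at Dlx5 and absent at Dlx6 and Msx1.

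Signalling genes met domains in 16 of 63 entries (25.4%). The list enters Ccn2 also under its older name Ctgf, so that gene, which met no domain, is counted again. The share was 11.8% of all protein-coding genes, 16.5% of those that met any combined H3K27ac peak and 26.7% of the reference genes. Transforming growth factor beta and bone morphogenetic protein signalling was represented by the ligand genes Tgfb2 (62.7 kb) and Bmp7 (46.6 kb), both FL only, the receptor gene Tgfbr2 (104.3 kb, both), the effector gene Smad3 (138.6 kb, both) and the inhibitory Smad6 (93.8 kb, both) and Smad7 (50.9 kb, MC only). Of the fibroblast growth factor receptors, Fgfr2 met a domain broad in both and one in MC only, whereas Fgfr1 and Fgfr3, the latter a brake on growth plate proliferation, met domains broad in FL only. Wnt5b, the Wnt receptor gene Ror2 (83.3 kb) and the secreted protein gene Dkk3 met FL only domains. Notch1 (both), Notch2 (FL only) and Igf1r (3 domains) were also among the 16.

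Genes of neighbouring tissues met domains too. Of 23 tendon and perichondrium genes, 7 did (30.4%). Among them were Scx, the transcription factor gene of tendon progenitors, and the collagen VI genes Col6a1, Col6a2 and Col6a3, all FL only, and Col1a1 and Col5a1, broad in both. Muscle genes did in 3 of 17 cases (Tnnt3, Tnni1 and Mymk, 17.6%) and endothelial genes in 2 of 14 (Erg and Fli1, 14.3%). Neuron and Schwann cell genes did in 1 of 14 (S100b, 7.14%), and epithelial (14) and blood (13) genes in none. The share was 11.8% of all protein-coding genes and 16.5% of those that met any combined H3K27ac peak. The muscle, endothelial and neuronal shares were thus near or below these. Some of these lay in a domain beside another gene, such as Tnnt3, which shares a domain of 145.6 kb with Lsp1 and Mrpl23. In bulk tissue, a smaller share of cells of a type and a weaker mark per cell cannot be told apart, and the part of other cell types in the FL only class was not tested.

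**Figure D2:**
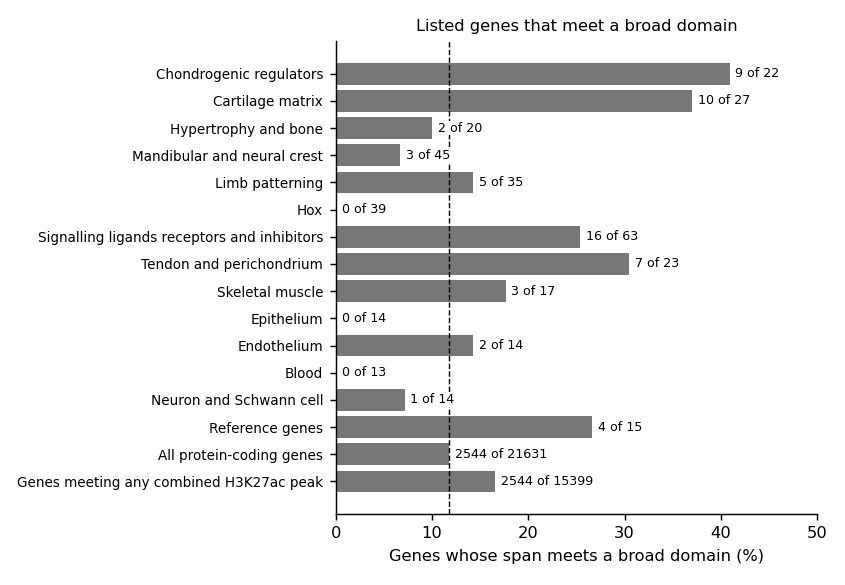
Bars give the percent of genes in each list whose span meets a broad domain, with the count beside each bar; the dashed line is the share of all protein-coding genes. Chondrogenic regulators (9 of 22) and cartilage matrix genes (10 of 27) stand highest, and Hox, epithelial and blood genes are at 0.

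A domain usually belonged to few genes. No protein-coding gene was met by 62 domains, and exactly 1 gene by 687. A RefSeq transcription start lay in 767 (54.6%), more often in domains broad in both (65.4%) than in MC only (52.6%) or FL only (47.0%). Domains broad in both were also longer, at a median of 70.9 kb against 46.4 and 48.2 kb, and starts per length were not compared. The most gene-rich domain, of 58.6 kb, overlapped 25 genes, among them nested genes of the gamma protocadherin cluster. Conversely, 6 genes met 4 domains each, namely Agap1, Apbb2, Mad1l1, Msi2, Arid1b and Ctif. The X chromosome held a single domain, at Plxnb3 (FL only, 41.7 kb). There were 0.992 broad peaks per 1000 combined peaks on X, against 8.35 to 34.5 on the autosomes, and the median X peak was also narrower, at 4.37 kb in MC and 5.69 kb in FL.

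The promoters of cartilage genes in domains are shown because all ATAC lists had a peak at each start printed. They are RefSeq GRCm38.p6 windows from 250 bases before to 50 after the start, with GGGCGG and CCGCCC (the GC box on either strand), TATAAA or TTTATA and ACAAAG or CTTTGT (a SOX-type motif) in capitals.
Acan, chr7:79052976-79053275, plus strand: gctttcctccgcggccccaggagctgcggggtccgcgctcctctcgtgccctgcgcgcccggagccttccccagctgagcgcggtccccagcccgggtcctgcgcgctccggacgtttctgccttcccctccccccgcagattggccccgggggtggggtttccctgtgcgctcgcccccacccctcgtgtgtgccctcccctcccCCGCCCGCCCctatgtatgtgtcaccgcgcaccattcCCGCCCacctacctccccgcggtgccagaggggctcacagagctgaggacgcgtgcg
Chst11, chr10:82985247-82985546, plus strand: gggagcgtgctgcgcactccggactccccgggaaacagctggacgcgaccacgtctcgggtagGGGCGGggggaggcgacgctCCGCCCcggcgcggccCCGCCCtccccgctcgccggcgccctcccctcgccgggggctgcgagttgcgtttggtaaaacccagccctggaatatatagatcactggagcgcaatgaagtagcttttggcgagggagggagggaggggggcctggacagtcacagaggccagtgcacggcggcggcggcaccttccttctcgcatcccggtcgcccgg
Col11a2, chr17:34038888-34039187, plus strand: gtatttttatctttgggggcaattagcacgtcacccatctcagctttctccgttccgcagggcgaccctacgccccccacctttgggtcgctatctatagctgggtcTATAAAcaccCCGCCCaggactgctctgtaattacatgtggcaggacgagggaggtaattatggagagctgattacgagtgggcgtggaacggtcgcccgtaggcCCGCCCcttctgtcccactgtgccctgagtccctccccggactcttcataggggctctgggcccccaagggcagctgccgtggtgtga
Col27a1, chr4:63215162-63215461, plus strand: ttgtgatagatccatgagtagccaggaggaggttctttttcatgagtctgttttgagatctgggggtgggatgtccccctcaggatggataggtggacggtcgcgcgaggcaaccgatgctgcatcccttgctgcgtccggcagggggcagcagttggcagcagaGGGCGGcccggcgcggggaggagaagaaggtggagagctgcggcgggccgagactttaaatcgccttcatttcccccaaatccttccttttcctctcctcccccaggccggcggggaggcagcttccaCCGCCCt
Fgfr3, chr5:33721474-33721773, plus strand: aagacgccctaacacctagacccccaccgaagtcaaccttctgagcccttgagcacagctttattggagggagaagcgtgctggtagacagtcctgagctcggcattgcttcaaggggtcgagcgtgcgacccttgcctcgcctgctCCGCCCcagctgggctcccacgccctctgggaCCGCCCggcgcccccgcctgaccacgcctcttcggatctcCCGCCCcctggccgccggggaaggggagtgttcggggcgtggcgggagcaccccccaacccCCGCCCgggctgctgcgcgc
All 5 windows hold at least 1 GC box, none holds the SOX-type motif, and of the 5 only the Col11a2 window holds TATAAA. For comparison, a GC box was found in 46.7% of all 21045 windows, in 64.6% of those in domains, in 61.1% of those in narrower H3K27ac intervals and in 19.3% of those outside H3K27ac peaks. TATAAA was found in 12.7% of all windows, 5.59% in domains, 7.18% in narrower intervals and 23.1% outside. The SOX-type motif was found in 16.8%, 12.8%, 13.9% and 22.5% respectively. Promoters in domains were thus GC-rich (median 61.3%) to about the degree of those in narrower intervals (60.3%), and both stood apart from those outside (47.3%). Col2a1, Sox9, Tbx5, Tbx15, Alx4 and Comp were not among the windows used.

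An ATAC library stood apart before any comparison. Replicate 1 of the E12.5 mandibular process placed 26.4% of its peak cover in domains and covered 26.0% of their bases, where replicate 2 covered 7.10% and the 6 E14.5 libraries 6.46% to 9.74%. Both E12.5 libraries are given separately below for that reason.

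Open chromatin was denser inside domains than in narrower H3K27ac intervals in all 8 ATAC libraries. ATAC peaks covered 8.15%, 9.74% and 9.07% of domain bases in the MC libraries and 6.46%, 8.41% and 6.89% in the FL libraries. They covered 6.16%, 6.37% and 6.71% of the bases of narrower intervals in MC and 5.75%, 7.19% and 6.14% in FL. Counted as peaks per length, the ratio of domains to narrower intervals was 1.37, 1.46 and 1.33 in MC and 1.19, 1.19 and 1.14 in FL, so every MC library lay above every FL library. It was 2.08 and 1.18 in the E12.5 libraries. The typical domain held a median of 4 or 5 ATAC peaks in the E14.5 libraries, and 33 to 92 domains held none.

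**Figure D3:**
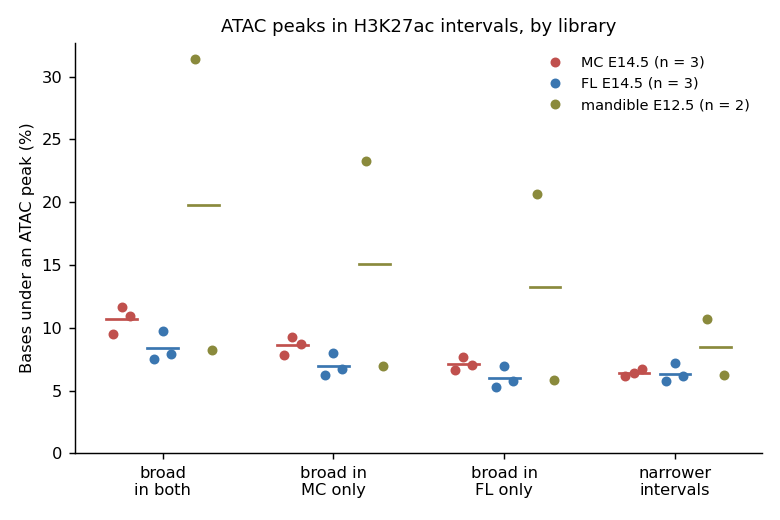
Points give the percent of bases under an ATAC peak in each library (MC and FL with 3, E12.5 mandible with 2), for each class of domain and for narrower H3K27ac intervals; bars are group means. MC points lie at 9.55% to 11.7% and FL points at 7.52% to 9.76% in domains broad in both, and 1 E12.5 library lies far above all others in every set.

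The density of open chromatin did not simply follow width. In the MC libraries, peaks per 100 kb averaged 9.38 ± 0.638 (SD, n = 3) in H3K27ac peaks under 5 kb, 7.79 ± 0.579 at 5 to 10 kb and 10.6 ± 0.396 at 40 kb or more. In the FL libraries they averaged 13.6 ± 1.49, 7.16 ± 1.15 and 8.69 ± 1.66 (SD, n = 3). In FL the shortest class held the most peaks per length. In MC the broadest class did, at 10.2 to 11.0 per library against 8.65 to 9.79 in the shortest, without overlap. The point of highest H3K27ac signal lay in an ATAC peak of the same cartilage's combined list in 74.6% of broad MC peaks and 67.0% of broad FL peaks, against 24.98% and 40.4% of peaks under 5 kb. That point lay within 1 kb of a transcription start in 24.9% (MC) and 23.9% (FL) of broad peaks, against 12.6% and 21.4% of peaks under 5 kb. Broad peaks far more often held a start anywhere, in 56.4% (MC) and 53.2% (FL), against 13.5% and 22.9% of peaks under 5 kb. In many broad peaks that held a start, the highest point therefore lay elsewhere.

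ATAC cover was then compared between MC and FL in each of 25078 intervals with limma, on the log2 of kb under a peak after scaling every list to the same total, with 0.2 kb added. No interval passed an adjusted p of 0.05 (0.0% of intervals called in either direction), and the lowest adjusted p was 0.133. At an unadjusted p under 0.05 there were 249 domains higher and 56 lower in MC among the 1381 domains tested, against 1452 higher (5.79%) and 1561 lower (6.22%) of all intervals. The 3 MC libraries lay above all 3 FL libraries in 282 domains (20.4%), against 7.72% of all intervals, and below all of them in 63 (4.56%), against 7.65%. The median limma SE was smaller in the domains, at 0.28 against 0.40 over all intervals, so these counts were not compared at equal precision. How much of the excess came with that precision was not tested. The median log2 difference was 0.25 over the domains and 0.00 over all intervals.

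The lean toward MC was present in every class, including the domains broad in FL only. The median was 0.34 for domains broad in both, 0.24 for MC only and 0.20 for FL only, where −0.01 was found for narrower intervals. Above 0 lay 79.4%, 69.5% and 65.0% of the domains of these classes. Most domains of each class thus lay on the MC side, and the difference between the classes was not tested. When peaks were counted in place of kb, the medians were 0.21, 0.14 and 0.09 and that of all intervals 0.07, and 3 of 1385 domains were called higher (0.217%) and 7 lower (0.505%) in MC. Over all 27028 intervals, 0.625% were called higher and 2.53% lower under the same setting, so both shares were smaller in the domains. Without the variance trend of limma, 2 domains were called higher and 4 lower, against 0.61% and 2.41% of all intervals. Among the 10 called with peaks counted, Tcf3 and Arhgef10l were higher, and Col6a6, Agap1 (the third of its domains), Prdm2, Pxdn (the second), Ppp2r5e (the first), Ccny and Vapb were lower.

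**Figure D4:**
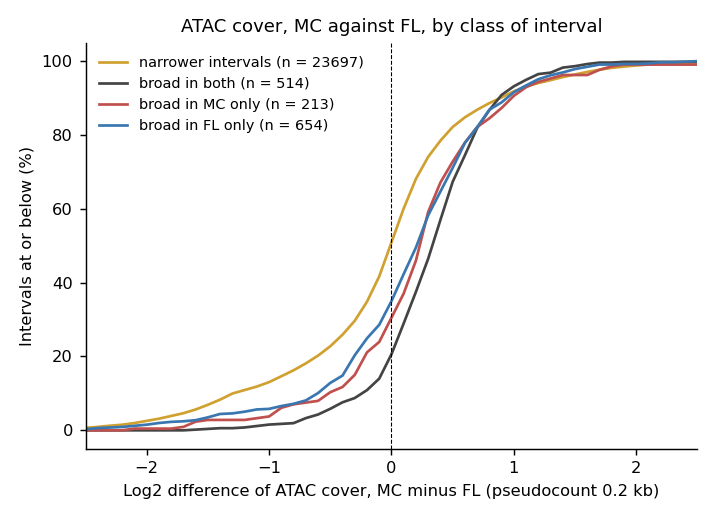
Lines give the percent of intervals at or below each log2 difference of ATAC cover (MC minus FL, x axis), for the 3 classes of domain and for narrower intervals. All 3 classes of domain lie to the right of the narrower intervals around 0, with domains broad in both farthest.

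The ATAC difference was also read against how far the other cartilage carried the mark. The 18 FL only domains with under 50% MC cover had a median log2 difference of −0.73 over the 14 tested, of which 10 lay below 0, whereas those with 80% or more had a median of 0.23 over 450. The 3 MC only domains with under 50% FL cover had a median of −0.97, all 3 below 0, in the direction of more open chromatin in FL. These groups were defined by H3K27ac and the difference between them was not tested.

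Of 7 domains that met a limb patterning gene, 2 had all FL libraries above all MC libraries, those of Tbx15 and Tbx5, where 4.56% of all domains did. The Tbx15 domain had 2.22, 2.17 and 2.27 kb under ATAC peaks in the MC libraries and 4.38, 4.90 and 3.44 kb in FL (unscaled, as are all kb values here). The groups did not overlap, and the log2 difference was −0.85 ± 0.16 (limma SE, adjusted p = 0.133). The Tbx5 domain had 1.30, 0.00 and 0.00 kb in the MC libraries and, in FL, 1.58, 3.16 and 4.26 kb, again without overlap (log2 difference −2.92 ± 0.80, limma adjusted p = 0.18). MC had an ATAC peak at Tbx5 in 1 of 3 libraries. The Col6a6 domain, at a collagen VI gene, had no ATAC peak in any MC library and 2.05, 1.79 and 0.97 kb in FL (log2 difference −3.12 ± 0.49, limma adjusted p = 0.133), and was called when peaks were counted (adjusted p = 0.0395). The first Col6a3 domain had 0.00, 0.60 and 0.00 kb in the MC libraries and, in FL, 1.17, 2.19 and 1.55 kb.

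The Meis1 domain went against its class. It had 0.86, 0.42 and 1.18 kb under ATAC peaks in MC and 2.51, 0.99 and 1.88 kb in FL, where no H3K27ac peak lay, and the groups overlapped (log2 difference −0.97 ± 0.45, limma adjusted p = 0.46).

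Among the 3 domains that met a jaw gene, ATAC cover leaned to MC at Alx4 and Prrx2. The Alx4 domain (chr2:93639379-93685110, 45.7 kb, MC only) had 5.46, 4.11 and 8.07 kb under ATAC peaks in MC and 1.98, 0.89 and 1.86 kb in FL, without overlap (log2 difference 1.79 ± 0.38, limma adjusted p = 0.138). Ext2, its neighbour, which encodes a heparan sulfate polymerase, met another MC only domain (chr2:93769819-93812870, 43.1 kb) with 4.48, 4.68 and 5.29 kb in the MC libraries and, in FL, 0.00, 2.38 and 0.97 kb (2.63 ± 0.77, limma adjusted p = 0.206). FL peaks covered 87.8% and 90.1% of these domains in H3K27ac. Prrx2, a homeobox gene of craniofacial and limb mesenchyme, lay in a FL only domain whose ATAC cover was nonetheless higher in MC, at 7.61, 6.43 and 4.81 kb against 1.15, 4.95 and 4.11 kb. The lowest MC and highest FL values crossed as listed and did not after scaling (1.05 ± 0.43, limma adjusted p = 0.386). The Ets1 domain, MC only, had 5.41, 5.66 and 4.82 kb in the MC libraries and, in FL, 4.57, 7.57 and 4.64 kb and overlapped (log2 difference −0.03 ± 0.18, limma adjusted p = 0.982).

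Domains at cartilage matrix genes divided into those with more ATAC cover in MC and those without a difference in rank. The Col2a1 domain (chr15:97970272-98022305) had 7.98, 14.53 and 13.5 kb in the MC libraries and, in FL, 6.40, 6.98 and 6.04 kb, without overlap (log2 difference 0.84 ± 0.26, limma adjusted p = 0.231). The Col11a2 domain (chr17:34020302-34073749), which also holds Rxrb and Ring1, had 11.4, 16.4 and 15.3 kb in the MC libraries and, in FL, 7.51, 6.83 and 8.66 kb, without overlap (0.89 ± 0.26, limma adjusted p = 0.201). The domains of Col9a3, Col27a1 and Comp, the last named here Crtc1 after its larger gene, also had all MC libraries above all FL libraries after scaling. As listed, the lowest MC value (17.6 kb) and highest FL value (18.5 kb) of the Col27a1 domain crossed. The Acan domain (chr7:79048020-79103225) had 3.50, 2.60 and 2.35 kb in the MC libraries and, in FL, 3.50, 4.04 and 1.30 kb and overlapped fully (0.07 ± 0.37, limma adjusted p = 0.977). The Chst11 domain overlapped as well, at 20.5, 13.6 and 19.5 kb in the MC libraries and, in FL, 10.2, 19.1 and 17.5 kb. In all, 5 of 12 domains that met a matrix gene had no overlap after scaling with MC higher and 0 with MC lower, where 20.4% and 4.56% of all domains tested did.

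**Figure D5:**
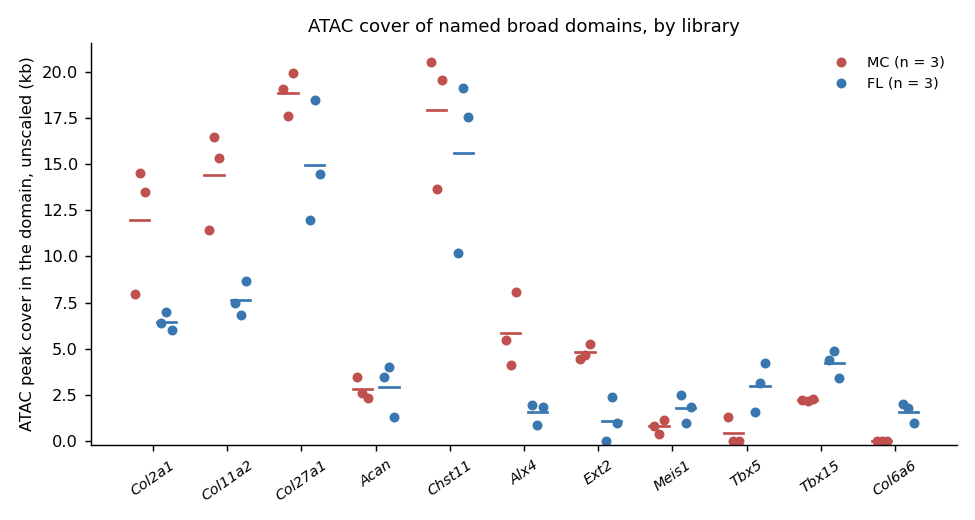
Points give the kb under ATAC peaks (unscaled) in each of 3 MC and 3 FL libraries for 11 named domains; bars are group means. MC lies higher at Col2a1, Col11a2, Alx4 and Ext2, FL lies higher at Tbx5, Tbx15 and Col6a6, and the libraries overlap at Col27a1, Acan, Chst11 and Meis1.

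None of the 14 domains that met a chondrogenic regulator was free of overlap in either direction. The first Sox5 domain had 3.60, 3.31 and 4.09 kb in the MC libraries and, in FL, 3.61, 3.57 and 3.65 kb, a log2 difference of 0.03 ± 0.16, among the most even of all those named. Of 20 domains that met a signalling gene, 3 had all MC libraries higher and 1 all FL libraries higher, shares near those of all domains (20.4% and 4.56%). The Fgfr3 domain, which also holds Letm1 (chr5:33718068-33784077, FL only), was among the former, with 6.20, 5.00 and 6.48 kb in the MC libraries and, in FL, 2.22, 3.99 and 3.78 kb (0.83 ± 0.20, limma adjusted p = 0.158). The others were Fgfr1 and Notch1, and the domain with all FL libraries higher was the first Fgfr2 domain (−0.57 ± 0.18), which is broad in MC only.

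The domains with the 5 smallest p-values in each direction included Tbx15 and Col6a6, described above. Higher in MC were Arhgef10l (1.61 ± 0.19), Phldb1 (1.36 ± 0.21), Krt80 (1.45 ± 0.19), Zbtb17 (1.02 ± 0.17) and Galns, the gene of a lysosomal sulfatase that degrades keratan sulfate (0.97 ± 0.16), each with a limma adjusted p of 0.133. The Galns domain had 6.21, 5.37 and 5.04 kb in the MC libraries and, in FL, 2.59, 3.15 and 2.52 kb. Lower in MC, beside Tbx15 and Col6a6, were Vapb (−1.11 ± 0.25), the second Mcph1 domain (−1.27 ± 0.26) and the second Zfp521 domain (−1.17 ± 0.26), with limma adjusted p from 0.138 to 0.151.

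The cartilage lists shared most of their ATAC peaks in domains. The combined MC list had 5361 peaks in domains and the combined FL list 5673, and 80.5% of the former and 77.3% of the latter overlapped a peak of the other. In narrower intervals 87.4% of MC peaks and 74.4% of FL peaks did.

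Against the E12.5 mandibular process, which shares the MC libraries with the comparison above, the result depended on the E12.5 library. No interval of 25715 was called (0.0% in either direction, lowest adjusted p 0.677), and 69 domains were higher (4.96%) and 19 lower (1.37%) in E14.5 MC at an unadjusted p under 0.05, near the 4.65% and 1.59% of all intervals. All MC libraries lay above both E12.5 libraries in 179 of 1390 domains (12.9%), against 19.7% of all intervals, and below both in 45 (3.24%), against 4.02%. Without the scaling, 80 domains lay above and 97 below, against 12.1% and 7.52% of all intervals. Without E12.5 replicate 1 the counts were 675 (49.1%) and 130 (9.46%), against 28.7% and 16.9%, and without replicate 2 they were 387 (28.0%) and 753 (54.5%), against 46.1% and 21.9%. The balance of the counts thus turned with the setting. The median log2 difference was −0.03 for domains broad in both, 0.05 for MC only and −0.04 for FL only, where all intervals had 0.39. Without the scaling, that of all intervals was −0.02 and those of the classes −0.53, −0.45 and −0.52. Without E12.5 replicate 1 the classes had 0.40, 0.33 and 0.25 against 0.10 for all intervals, and no domain was called. Without replicate 2, which leaves replicate 1 as the lone E12.5 sample with the spread taken from MC, they had −0.60, −0.28 and −0.44 against 0.86, and 104 domains were called higher (7.53%) and 56 lower (4.05%), against 12.9% and 4.97% of all intervals. The sign of the domains' difference from the rest therefore turned with the E12.5 library used.

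Domains with both E12.5 libraries on one side of all MC libraries included Xylt1, whose second domain had 4.83, 5.51 and 4.40 kb in MC and 2.44 and 1.99 kb at E12.5 (1.56 ± 0.37, limma adjusted p = 0.677). The Ddr2 domain, at a collagen receptor gene, had 2.94, 3.05 and 3.18 kb in MC and 1.49 and 0.86 kb at E12.5 (1.75 ± 0.38). The Ext2 domain had 3.41 and 1.15 kb at E12.5 (1.67 ± 0.38). The intergenic domain 21 (chr7:78934103-78974557, MC only), which lies near the Acan domain, had 3.91, 5.97 and 4.95 kb in MC and 2.11 and 1.36 kb at E12.5 (1.89 ± 0.38). Lower in E14.5 MC were Traf3, Zc3h3, Prdm2, the third Agap1 domain and an intergenic domain near Gli2, and of these Traf3, Prdm2 and Agap1 had no ATAC peak in any MC library. At Wwp2, whose second domain flanks Mir140, MC had 4.47, 5.87 and 8.32 kb and E12.5 had 1.54 and 3.46 kb (1.76 ± 0.56, limma adjusted p = 0.677).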

How the data were processed

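The deposited combined H3K27ac lists give a position, a summed score (the total signal) and a highest signal per peak. The deposited ATAC lists give a score and a −log10 p-value per peak. The authors' lists were used as deposited. The submitters' processing notes name Trim Galore, Bowtie2, SAMtools, SEACR (CUT&Tag), Genrich (ATAC) and mm10, without versions; how the combined lists were pooled is not given in the sources used here. Read depth is unknown; ATAC lists held 43205 to 74706 peaks on autosomes and X. Samples were grouped by their titles; the E12.5 libraries' descriptions name another assay and stage, and the titles were followed.

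Domains and genes (RefSeq GRCm38.p6, 17274 of 21631 genes with a start; 1005 hairpins) were joined with Python 3.11.15 and pandas 2.3.3. ATAC kb per interval were tested with limma 3.58.1 in R 4.3.3 (trend, mean cover of at least 0.2 kb, Benjamini-Hochberg over all intervals), and the script was tested on simulated data. Members and lists were chosen with earlier results of these data known. Named were the 8 widest domains per class, domains meeting listed genes, and the 5 smallest p-values in each direction. Other pseudocounts, filters, scalings, widths and overlaps, left-out libraries and a replicate block were tried. Some genes of the lists and some domains are counted but not reported here by name.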

Additional observations from a re-analysis of the deposited data

How the results depend on the processing

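Direction and size held within the spread between libraries, or within 1.5 times a count, for 139 of 166 alternative values of the 17 summary values; the cause of the others was not tested unless the setting itself shows it. For MC against FL, no domain was called except when peaks were counted in place of kb (3 higher and 7 lower in MC, against 169 and 685 over all intervals) and without the variance trend (2 and 4, against 153 and 605), and none when any library was left out. The MC only median of 0.24 became 0.18 with 1 kb added, 0.18 with equal numbers of best-scored peaks and 0.14 with peaks counted, and 0.14 to 0.28 with a library left out; the FL only median of 0.20 became 0.092 with peaks counted. For E14.5 MC against the E12.5 mandibular process, the medians for both, MC only and FL only were −0.53, −0.45 and −0.52 without scaling. With a library left out they ran from −0.60 to 0.40, −0.28 to 0.33 and −0.44 to 0.25, and the calls from 0 to 104 higher and 0 to 56 lower.

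The classes both, MC only and FL only held 1078, 333 and 1144 domains at 30 kb, 261, 126 and 410 at 50 kb, and FL only held 342 with equal numbers of the widest peaks. Genes wholly inside a domain numbered 1313. The FL density ratio was 1.13 with equal numbers of best-scored peaks. The sign of the difference at Acan, Chst11 and Smad3 was unstable, with −0.49, −0.042 and 0.13 when peaks were counted, and −0.37 to 0.33 at Acan and −0.37 to 0.17 at Smad3 with a library left out. With the replicate block the medians for MC against FL were 0.34, 0.24 and 0.20 and 0 domains were called in either comparison; same-numbered libraries correlated at 0.04, 0.00 and 0.12, so the numbers were not taken as pairs, and in the E12.5 comparison the block leaves out MC replicate 3. The lists give peaks without read counts, so a domain with 0.00 kb has no called peak, which does not show closed chromatin.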
